A study of Drosophila melanogaster with 12 samples.

Results

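The genes described here are 7 glial markers of the adult fly head: alrm, Eaat1, Gat, Gs2, repo, moody and wrapper. They were chosen by name, as known glial genes, with earlier results of these data known, and matched to the count table by symbol. All 7 were found among 24228 features in the table, and all 7 were among the 10238 features with enough reads to be tested. Their names cover astrocyte-like, cortex and surface glia and the glial identity factor repo; genes of ensheathing glia were taken from a wider panel of 33 further glial genes.

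RNA was sequenced after polyA selection from whole heads of adult Drosophila melanogaster of the wild-type strain ORE-R, in pools of 200 heads. Flies of both sexes first lived together for 3 to 5 days. Females and males were then kept either alone or in groups of 25 of their own sex, for 7 days. This gave 4 groups of 3 libraries: group-housed females, isolated females, group-housed males and isolated males. All groups share the strain, the prior mixed housing and the absence of any transgene or drug in the labels. In each group replicate 0 belongs to batch 1 and replicates 1 and 2 to batch 2. Whether the pools of one group were reared apart is not in the labels; the p-values therefore describe spread among libraries, some of which may be technical.

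Glia are the non-neuronal cells of the fly nervous system and are divided by position. Astrocyte-like glia send processes into the synaptic neuropil and take up transmitters; cortex glia wrap neuronal cell bodies; ensheathing glia border the neuropil; perineurial and subperineurial glia form the surface layers and the blood-brain barrier. Glutamate taken up by glia is turned into glutamine by glutamine synthetase and passed back to neurons, while GABA is cleared by its own transporter.

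Library totals ran from 2584050 to 17122099 counts, and the 2 shallowest libraries were isolated females, replicates 1 and 2. Counts of a single member in a single library ran from 142 to 13287. Replicates of a group differed by more than counting noise, with a chi-square per degree of freedom of 4.48 to 65.7 between pairs, so all 12 libraries were counted as separate. In RNA from whole heads, fewer cells of a type and less RNA per cell cannot be told apart, and this holds for every result below.

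The 7 genes were expressed in every library. Levels between genes were compared per length, as CPM divided by exon length in kilobases (RPKM), where CPM is the count put on the usual per-megaread scale, with library sizes adjusted by the TMM method. Gs2 was highest, at 415 ± 60.5 RPKM (SD, n = 12), followed by Eaat1 at 146 ± 24.4. Gat stood at 105 ± 19.5 and alrm at 88.3 ± 21.4. The 3 lowest were wrapper at 40.7 ± 5.81, repo at 31.9 ± 2.51 and moody at 27.9 ± 3.82 RPKM. The order Gs2, Eaat1, Gat, alrm, wrapper, repo, moody was the same in all 4 group means. Some neighbours in that order overlapped between libraries. Gat overlapped alrm in group-housed females and group-housed males, and Eaat1 overlapped Gat in isolated males. Wrapper overlapped repo in isolated females, and repo overlapped moody in every group except isolated males. The most even gene was repo, whose highest library was 1.28 times its lowest on the CPM scale, and the least even was alrm, at 2.07 times.

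**Figure D1:**
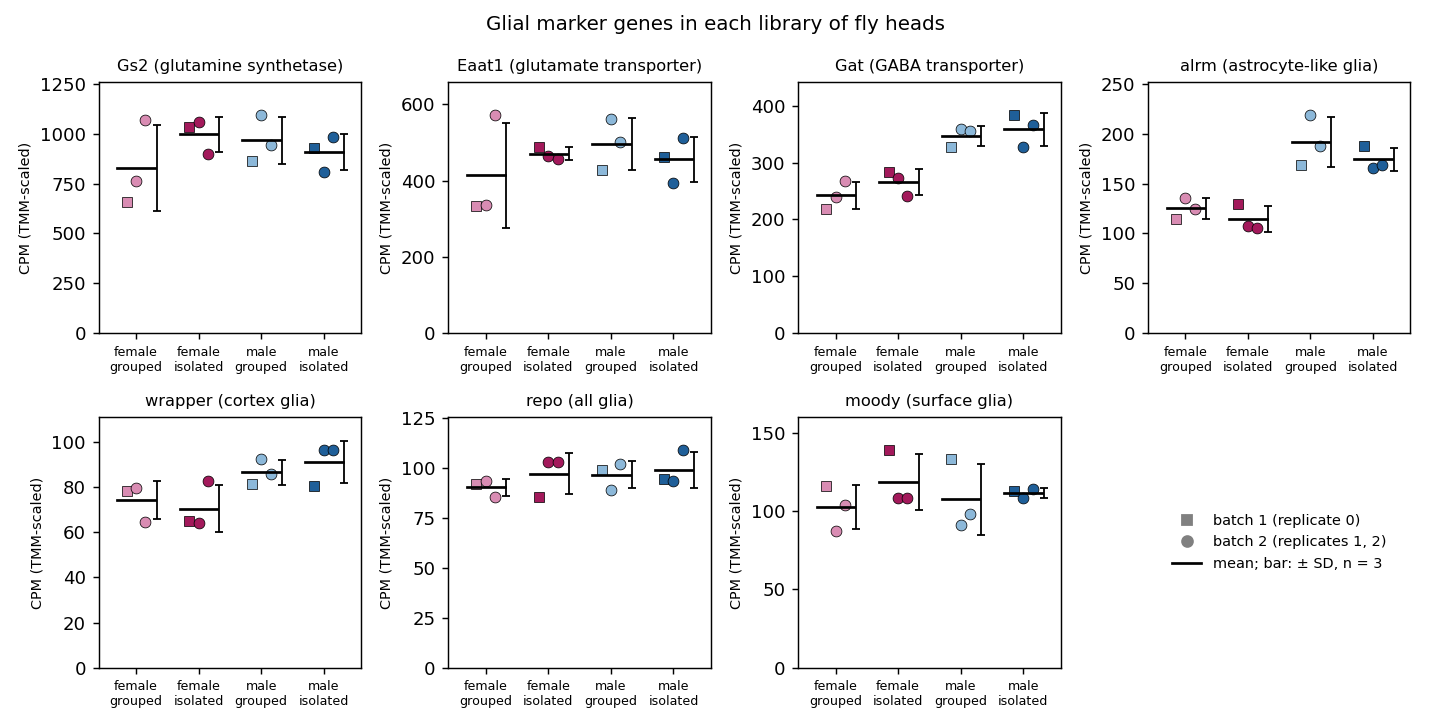
Level of each of the 7 glial genes in each library, in CPM after TMM scaling, for females and males kept in groups or alone; squares are batch 1, circles batch 2, lines the mean and bars ± SD (n = 3). The females of alrm (106 to 136 CPM) and Gat (219 to 284 CPM) lie below all male libraries (166 to 219 and 327 to 384 CPM), while repo spans 85.3 to 109 CPM with the sexes overlapping.

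Female heads held less alrm and less Gat RNA than male heads in every library, under both housings. In the fitted comparisons housing was tested within each sex only, and it moved none of the 7 genes past the test. With both sexes pooled, housing was compared only for the ratios to repo, given below. The sexes were also compared averaged over housing, but no housing contrast averaged over sex was fitted. The fitted female level of alrm was 0.656 times the male level, and that of Gat 0.719 times, averaged over housing. The glial identity gene repo and the barrier gene moody differed little between the sexes in the same libraries, at 0.956 and 1.00 times. Values below are CPM in replicates 0, 1 and 2, in that order, unless another unit is named.

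The gene alrm encodes a leucine-rich repeat protein and is the usual marker of astrocyte-like glia. It is a single exon of 1717 bases (FBgn0039332, chromosome 3R, 25381065 to 25382781, minus strand; annotation BDGP6.54) inside an intron of Fur1 on the same strand. Group-housed females had 115, 136 and 125 CPM of alrm and isolated females 130, 108 and 106. Group-housed males had 169, 219 and 188 CPM of alrm and isolated males 188, 166 and 169. The lowest male library, at 166, lay above the highest female library, at 136, so the sexes did not overlap under either housing. Under group housing 3 of 7 members (alrm, Gat and wrapper) lay lower in every female than in every male library, as did 6.62% of all features, and under isolation 2 of 7 (alrm and Gat), beside 10.1%.

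Under group housing alrm was lower in females by a log2 fold change of -0.62 (SE 0.14, 95% interval -0.91 to -0.32, adjusted p = 0.0209, edgeR's quasi-likelihood test with Benjamini-Hochberg adjustment over all 10238 features). Under isolation the log2 difference was -0.60 (SE 0.14, interval -0.90 to -0.30, adjusted p = 0.0226, edgeR). Thus 1 of 7 members was called in each housing, where 2.73% of all features were called under group housing and 4.24% under isolation. In the direction of lower levels in females, 1.23% and 0.635% of features were called. Within batch 1 the log2 difference of alrm was -0.56 under group housing and -0.53 under isolation, and within batch 2 it was -0.64 and -0.65. The calls in single housings depended on single libraries. Under group housing the adjusted p of alrm rose to 0.162 without grouped female replicate 0, 0.121 without grouped male replicate 1 and 0.0602 without grouped male replicate 2 (edgeR), and under isolation to 0.145 and 0.124 without isolated female replicates 1 and 2, and to 0.139 and 0.0602 without isolated male replicates 0 and 2.

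Averaged over both housings, a contrast added after the data had been seen, alrm was lower in females with a log2 difference of -0.61 (SE 0.10, interval -0.82 to -0.40, adjusted p = 0.000956, edgeR). That contrast called 7.82% of all features, and 2.46% of all features were called lower in females. The call was kept in all 12 fits that left out 1 library, with adjusted p up to 0.00666, and was lost with replicate 0 as the only isolated female library (adjusted p = 0.0898, edgeR). The host gene Fur1, a furin-type protease, had a mean of 178 CPM in females and 178 in males, with a log2 difference of -0.20 (SE 0.21) under group housing and 0.19 (SE 0.22) under isolation, neither called.

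Gat encodes the plasma membrane GABA transporter of astrocyte-like glia (FBgn0039915, chromosome 4, 629691 to 635350, plus strand). Its exons share 289 bases with an INE-1 transposon insertion that had 1.30 CPM in females and 1.32 in males. Group-housed females had 219, 240 and 268 CPM of Gat and isolated females 284, 273 and 241. Group-housed males had 327, 359 and 355 CPM and isolated males 384, 327 and 366. As for alrm, every female library lay below every male library.

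The difference of Gat between the sexes missed the threshold in each housing alone. Its log2 difference was -0.52 under group housing (SE 0.14, interval -0.81 to -0.23, adjusted p = 0.0550, edgeR) and -0.43 under isolation (SE 0.14, interval -0.72 to -0.14, adjusted p = 0.0998, edgeR). Other tools and settings moved Gat across the threshold: DESeq2 gave an adjusted p of 0.00228 under group housing and 0.0172 under isolation. Averaged over housing the log2 difference was -0.48 (SE 0.10, interval -0.68 to -0.27, adjusted p = 0.00523, edgeR), and this call was kept in all 12 fits that left out 1 library, with adjusted p up to 0.0250. It was lost in batch 2 alone (adjusted p = 0.100, edgeR) and with replicate 0 as the only isolated female library (adjusted p = 0.179, edgeR). The log2 difference within batch 1 was -0.51 and within batch 2 -0.46. With all 6 libraries of each sex set against each other, 1.12% of tested features were lower in every female library than in every male library; alrm and Gat were 2 of 7 members that did so.

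Eaat1 encodes the glial high-affinity glutamate transporter (FBgn0026439, chromosome 2L, 9333567 to 9341925, plus strand). Group-housed females had 334, 335 and 572 CPM of Eaat1 and isolated females 489, 465 and 457. Group-housed males had 427, 561 and 500 CPM and isolated males 462, 394 and 511. The sexes overlapped, and replicate 2 of the group-housed females was the highest of all 12 libraries. The log2 difference between females and males was -0.27 under group housing (SE 0.19, adjusted p = 0.643, edgeR) and 0.05 under isolation (SE 0.19, adjusted p = 0.931, edgeR).

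Gs2 encodes glutamine synthetase 2, which converts glutamate to glutamine (FBgn0001145, chromosome X, 11422832 to 11430197, plus strand). Group-housed females had 656, 761 and 1070 CPM of Gs2 and isolated females 1035, 1059 and 897. Group-housed males had 864, 1094 and 944 CPM and isolated males 927, 809 and 985. Here too the spread within group-housed females was wider than the range of the other 9 libraries, and the sexes overlapped. The log2 difference between females and males was -0.23 under group housing (SE 0.18, adjusted p = 0.697, edgeR) and 0.14 under isolation (SE 0.18, adjusted p = 0.772, edgeR).

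Eaat1 and Gs2, successive steps of glial glutamate handling, varied together from library to library. The log2 CPM of the pair, not centred within batch, gave a Pearson r of 0.93 over 12 libraries (permutation p = 2.00e-05, adjusted over 21 pairs 0.000420). The Spearman rho was 0.93 (permutation p = 9.00e-05, adjusted 0.00189), and both permutations ran across batches. Without the 2 libraries farthest from the median r was 0.86, and within the 8 libraries of batch 2 it was 0.92. Within females r was 0.93 (exact permutation p = 0.00417, adjusted 0.0875, n = 6) and within males 0.98 (exact permutation p = 0.00139, adjusted 0.0292, n = 6). By batch-centred profile, mt:ATPase8 was nearer to Eaat1 (r 0.98) and CG31688 nearer to Gs2 (r 0.96). Neuronal markers had the same highest library within group-housed females: the summed level of 10 neuronal genes was 5335, 4730 and 8002 CPM in replicates 0, 1 and 2 of that group. The part of neuronal RNA content in the spread of Eaat1 and Gs2 was not tested. Alrm and Gat separate by sex, so no pooled correlation is given for them; within females r was 0.18 (exact permutation p = 0.732, adjusted 0.912, n = 6) and within males 0.47 (exact permutation p = 0.351, adjusted 0.738, n = 6).

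The cortex glia gene wrapper encodes an immunoglobulin-family surface protein with which glia enwrap neurons (FBgn0025878, chromosome 2R, 22379637 to 22382675, plus strand). Group-housed females had 78.2, 79.7 and 64.4 CPM of wrapper and isolated females 64.8, 63.9 and 82.4. Group-housed males had 81.3, 92.2 and 85.6 CPM and isolated males 80.2, 96.3 and 96.4. Females and males did not overlap under group housing and overlapped under isolation. The log2 difference between the sexes was -0.21 under group housing (SE 0.14, adjusted p = 0.601, edgeR), -0.37 under isolation (SE 0.14, adjusted p = 0.186, edgeR) and -0.29 averaged over both (SE 0.10, interval -0.50 to -0.08, adjusted p = 0.0917, edgeR), so no call was made.

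The homeodomain transcription factor repo marks nearly all fly glia outside the midline (FBgn0011701, chromosome 3R, 18236192 to 18239602, plus strand). Its exons share 183 bases, 6.11% of their length, with CG7156 on the opposite strand, so reads there cannot be assigned without strand, and CG7156 had 19.8 CPM in females and 20.8 in males. Group-housed females had 91.9, 93.2 and 85.5 CPM of repo and isolated females 85.3, 103 and 103. Group-housed males had 98.7, 88.9 and 102 CPM and isolated males 94.4, 93.2 and 109. All 4 groups overlapped. Averaged over housing the log2 difference between females and males was -0.06 (SE 0.09, interval -0.26 to 0.13, adjusted p = 0.752, edgeR).

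The gene moody encodes a G-protein-coupled receptor of the subperineurial glia that is needed for the blood-brain barrier (FBgn0025631, chromosome X, 2044292 to 2050120, minus strand). Group-housed females had 116, 87.5 and 104 CPM of moody and isolated females 139, 108 and 108. Group-housed males had 133, 91.0 and 97.9 CPM and isolated males 113, 108 and 114. In 3 of the 4 groups replicate 0, the batch 1 library, was the highest, and the sexes overlapped throughout. Averaged over housing the log2 difference was 0.00 (SE 0.09, interval -0.19 to 0.20, adjusted p = 0.988, edgeR).

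Since repo stands in most glia, each member was also expressed as a ratio to repo in the same library, a comparison added after the data had been seen. The ratio cancels the scaling between libraries. The ratio of alrm counts to repo counts was 1.30 ± 0.220 in females and 1.89 ± 0.317 in males (SD, n = 6 each), with ranges of 1.03 to 1.53 and 1.56 to 2.47. The log2 difference was -0.55 (exact permutation test, two-sided, p = 0.00216, adjusted 0.0260 over the 12 tests by sex and by housing). This p is the smallest that 924 permutations allow, and the permutations ran across batches and groups. For Gat the ratio was 2.73 ± 0.405 in females and 3.63 ± 0.339 in males, with a log2 difference of -0.41 (exact permutation p = 0.00433, adjusted 0.0260). The Gat ranges, 2.34 to 3.33 and 3.31 to 4.07, touched at their ends. For wrapper the log2 difference was -0.24 (exact permutation p = 0.0216, adjusted 0.0866). The ratios of Eaat1, Gs2 and moody to repo differed between the sexes by -0.06, 0.01 and 0.07 on the log2 scale, each with adjusted p = 0.957 in the exact permutation test. Between housings, with both sexes pooled, the log2 differences of the ratios ran from -0.20 (alrm) to 0.07 (moody). Each had adjusted p = 0.957 in the same exact permutation test.

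**Figure D2:**
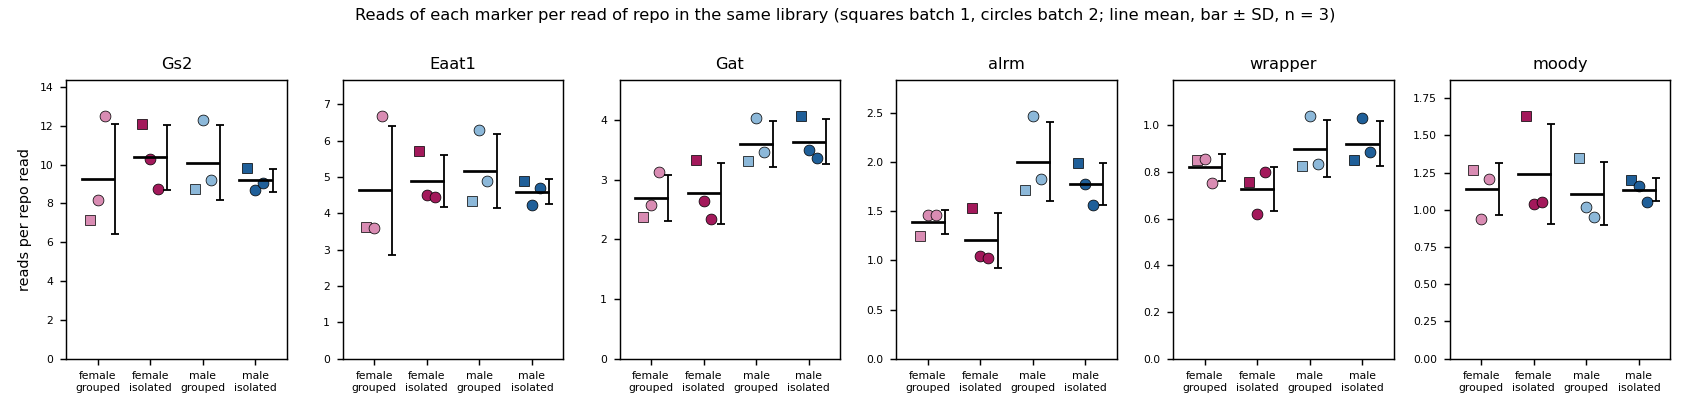
Ratio of the counts of each of the other 6 glial genes to the counts of repo in the same library, by sex and housing; points are libraries, lines means and bars ± SD (n = 3). The alrm ratio stays between 1.03 and 1.53 in females and between 1.56 and 2.47 in males, whereas the ratios of Eaat1, Gs2 and moody overlap between the sexes.

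For housing, 0 of 7 members passed the test in females, where edgeR called 3.48% of all features, and 0 of 7 passed in males, where it called 0.0781%. For the difference between the sexes in the response to isolation the count was also 0 of 7, against 0.440% of features. In all 3 comparisons 0 of 7 had an unadjusted p under 0.05, where 14.3%, 2.66% and 7.10% of features did, and DESeq2 and limma-voom also called 0. In females 5 of 7 log2 differences were positive, from -0.12 for alrm to 0.28 for Gs2, with a median of 0.14 beside -0.02 over all features. The interval of Gs2 was -0.11 to 0.67, that of Eaat1 (0.20) -0.21 to 0.61 and that of moody (0.20) -0.07 to 0.48. In males the values ran from -0.14 for alrm to 0.08 for moody, with a median of 0.03.

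These intervals bound what 3 libraries a group could show. For repo, the gene with the narrowest spread, the interval of the housing difference was -0.18 to 0.37 in females and -0.24 to 0.29 in males. For Eaat1 in males it was -0.52 to 0.29. The largest difference between the sexes in the response to isolation was that of Gs2, at 0.36 (SE 0.26, interval -0.19 to 0.92, adjusted p = 0.882, edgeR). Within batch 1 isolated females exceeded group-housed females in Gs2 by 0.66 on the log2 scale and in Eaat1 by 0.55, and within batch 2 by 0.11 and 0.08. For alrm the sign of the housing difference changed between batches in both sexes, at 0.18 and -0.28 in females and 0.15 and -0.28 in males.

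**Figure D3:**
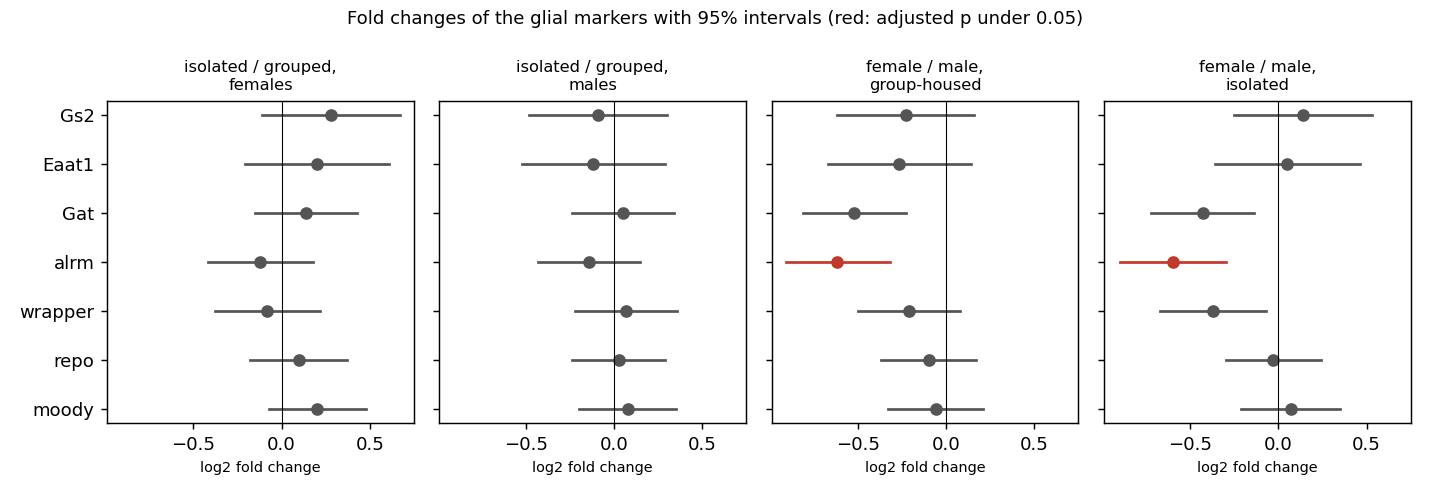
Log2 fold change of each of the 7 glial genes with its 95% interval from the edgeR fit, for isolation in females, isolation in males, and females against males under each housing. All 14 intervals for housing include 0; those of alrm and Gat between the sexes lie below 0 under both housings, and that of wrapper under isolation.

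In a wider panel of 33 glial genes, 1 gene was called higher in isolated females and 0 were called for housing in males. Between the sexes averaged over housing, the added contrast, rumpel and speck were called lower in females and Tret1-1 and Indy higher. Of the 33 genes, 31 had enough reads to be tested, and the embryonic glial determination genes gcm and gcm2 were near 0, with medians of 0.198 and 0.304 CPM. In isolated against group-housed females 1 of 31 was called, a share near the 3.48% of all features called. This gene was Indy, a citrate transporter of the perineurial list, at 269 ± 1.94 CPM in groups and 413 ± 16.6 CPM alone (SD, n = 3 each), with a log2 difference of 0.62 (SE 0.13, adjusted p = 0.0147, edgeR). That call was lost without grouped female replicate 0 and without any of the 3 isolated female libraries (adjusted p up to 0.101), and with library totals in place of TMM (0.41, adjusted p = 0.124, edgeR). In males Indy stood at 250 ± 35.1 CPM in groups and 273 ± 2.44 CPM alone. The panel had 0 of 31 called in males by edgeR, DESeq2 or limma-voom, and 0 of 31 at an unadjusted p under 0.05. For the difference between the sexes in that response 0 of 31 were called by edgeR, with 1 at an unadjusted p under 0.05, Indy itself (0.49, SE 0.19, adjusted p = 0.556).

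Between the sexes 1 of 31 panel genes was called under group housing, a share near the 2.73% of all features called. Under isolation 1 panel gene was called lower in females and 1 higher, beside 4.24% of all features. The gene rumpel, a sodium-solute symporter gene of ensheathing glia, was called in both housings. Its level was 55.7 ± 4.66 CPM in group-housed females, 63.0 ± 6.35 in isolated females, 97.8 ± 26.1 in group-housed males and 102 ± 11.2 in isolated males (SD, n = 3). The log2 difference was -0.81 under group housing (SE 0.17, adjusted p = 0.0124, edgeR) and -0.70 under isolation (SE 0.17, adjusted p = 0.0277, edgeR). The first call was lost without grouped female replicate 0 or grouped male replicate 1 (adjusted p up to 0.0781), and the second without any 1 of the 6 isolated libraries (up to 0.146). Averaged over housing 2 of 31 panel genes were called lower in females and 2 higher, beside 7.82% of all features called in either direction and 2.46% lower. The lower ones were rumpel (-0.76, SE 0.12, adjusted p = 0.000790, edgeR) and speck, the arylalkylamine N-acetyltransferase of the astrocyte-like list (-0.53, SE 0.12, adjusted p = 0.0141, edgeR), whose exons overlap genes on the other strand over 5.72% of their length. The higher ones were the perineurial trehalose transporter gene Tret1-1 (0.39, SE 0.10, adjusted p = 0.0213, edgeR) and Indy (0.35, SE 0.10, adjusted p = 0.0297, edgeR). Indy was also called under isolation alone (0.60, SE 0.13, adjusted p = 0.0168, edgeR). Leaving out 1 library, the averaged call of rumpel was kept in 12 of 12 fits and that of speck in 11, lost without grouped male replicate 2 (adjusted p 0.0547). Tret1-1 kept its call in 9 of 12, losing it without isolated female replicates 0 or 1 or isolated male replicate 0, and Indy in 4 of 12. With library totals in place of TMM neither Tret1-1 (0.30, adjusted p = 0.0607) nor Indy (0.27, adjusted p = 0.0778) was called.

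By glial class, the astrocyte-like list had the lowest median of 6 lists between the sexes in both housings. Of its 10 genes, which include alrm, Gat, Eaat1 and Gs2, all 10 had negative values between the sexes under group housing and 8 of 10 under isolation. The medians were -0.42 and -0.45 beside -0.01 and -0.02 over all features. The 2 genes positive under isolation were Eaat1 and Gs2. Of the list, e and Obp44a varied widely among the libraries, from 24.8 to 191 and from 30.6 to 204 CPM. The call in each housing was alrm alone, and averaged over housing alrm, Gat and speck were called. The cortex list of 6 genes had medians of -0.12 and -0.08 and 0 called by edgeR in either housing, with 1 of 6 at an unadjusted p under 0.05 in each. The ensheathing list of 5 had medians of -0.13 and -0.07 with rumpel called. The subperineurial list of 8 had medians of -0.07 and 0.01 with 0 called and 0 at an unadjusted p under 0.05. The perineurial list of 5 had medians of 0.03 and 0.18, and Indy was called under isolation. The 5 tested pan-glial genes had medians of -0.07 and -0.03 with 0 called and 0 at an unadjusted p under 0.05. The sign of the sex difference was the same in both housings for 23 of 31 panel genes (74.2%) and for 4 of 7 members (57.1%), where 62.5% of all tested features had the same sign.

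**Figure D4:**
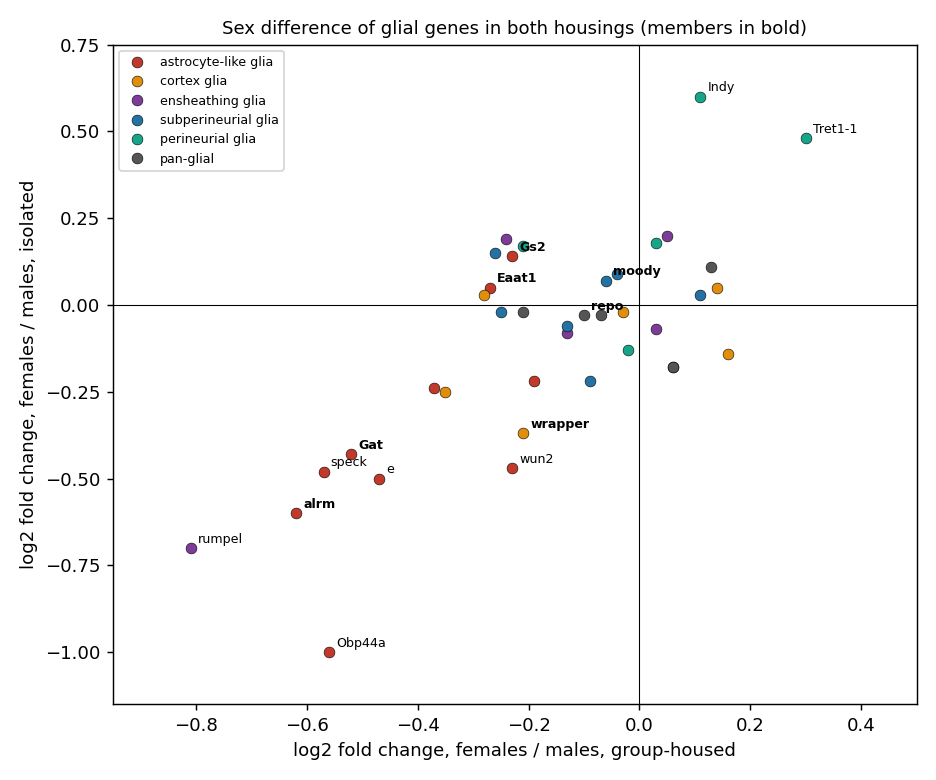
Log2 fold change of females against males under group housing (horizontal) and under isolation (vertical) for the tested glial genes, coloured by glial class, members in bold; a gene in 2 classes is drawn in the colour of the last. Most astrocyte-like genes, with alrm at -0.62 and -0.60 and Gat at -0.52 and -0.43, lie in the lower left, and repo and moody near 0.

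Transmitter uptake and recycling was described over 12 genes, 3 of them members. In isolated against group-housed females 1 of 12 was called, beside 3.48% of all features. Gs1, the mitochondrial glutamine synthetase, stood at 656 ± 105 CPM in groups and rose to 1037 ± 121 CPM alone (SD, n = 3 each), with a log2 difference of 0.66 (SE 0.14, adjusted p = 0.0143, edgeR), while Gs2 stood at 829 ± 215 and 997 ± 87.7 CPM. The call was lost without grouped female replicate 0 and without any of the 3 isolated female libraries (adjusted p up to 0.128), and with library totals (0.46, adjusted p = 0.0718, edgeR). It was also lost with no batch term, in batch 2 alone and with replicate 0 as the only isolated female library. Gs1 is not specific to glia, and the difference between the sexes in its response was 0.62 (SE 0.20, adjusted p = 0.346, edgeR). In males 0 of 12 were called and 0 had an unadjusted p under 0.05. Between the sexes 0 of 12 were called by edgeR in either housing, with 3 and 2 at an unadjusted p under 0.05. The neuronal genes of the list, Gad1 (glutamate decarboxylase, which makes GABA) and VGlut (the vesicular glutamate transporter), were not called in any of the comparisons.

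Markers of other head tissues also differed between the sexes. The summed level of 10 fat body genes was 19282 to 31662 CPM in group-housed females and 46855 to 66794 in isolated females. It was 9502 to 12969 in group-housed and 10063 to 12283 in isolated males. The list holds the yolk protein genes Yp1, Yp2 and Yp3, with log2 differences of 4.65, 5.06 and 5.13 averaged over housing, and Fbp1 at 4.77. Its sum therefore does not measure the amount of fat body. Averaged over housing 8 of 10 were called higher in females, AkhR and bmm not among them, beside 7.82% of all features called in either direction. Under group housing 2 of 10 were negative. The sum of 8 muscle genes was 3399 to 4004 CPM in females and 2130 to 3017 in males. Averaged over housing 4 of 8 were called higher in females, beside the same 7.82% of all features. The 10 neuronal genes were all negative between the sexes under group housing (median -0.24) and 6 of 10 were under isolation (median -0.14), with 0 of 10 called by edgeR and 1 and 0 at an unadjusted p under 0.05. Their summed level was 4730 to 8002 CPM in group-housed females, 6161 to 6900 in isolated females, 5976 to 7795 in group-housed males and 5741 to 8054 in isolated males. The 10 photoreceptor and 5 retinal pigment cell genes had medians between -0.14 and 0.05, with 0 called by edgeR and at most 1 at an unadjusted p under 0.05 in each housing. Among 6 hemocyte genes 3 were called higher in females under isolation (Hml, eater and NimC1), beside 4.24% of all features called in either direction. He was at 0 in some libraries. Of 4 tracheal genes 1, verm, was called higher in females under isolation, beside the same 4.24%. The part of these tissues in the lower share of alrm and Gat was not tested.

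**Figure D5:**
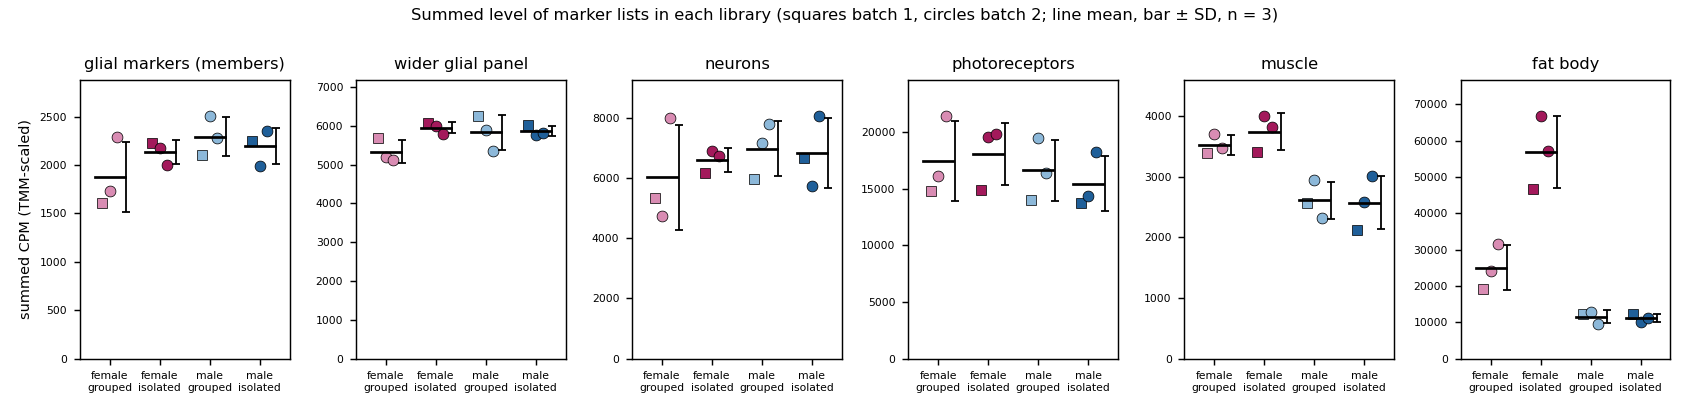
Summed CPM of the glial genes, the wider glial panel and 4 marker lists of other head tissues in each library; squares are batch 1, circles batch 2, lines means and bars ± SD (n = 3). Fat body sums, which include the yolk protein genes Yp1, Yp2 and Yp3, reach 66794 CPM in isolated females against at most 12969 CPM in males. The wider glial panel stays between 5123 and 6253 CPM.

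The features whose batch-centred profile over the 12 libraries was most like the mean of the 7 genes were lncRNA:CR45533 (Pearson r 0.97), Octbeta3R, an octopamine receptor gene (0.94), CG7724 (0.94), Naprt (0.93) and CG18467 (0.92). Of the members, Gat followed the mean profile most closely (r 0.96) and moody least (0.20), with repo at 0.22, so that the mean profile mostly carries Gat, alrm (0.82) and Eaat1 (0.70). For single genes the most similar features were asRNA:CR45479 for alrm (0.95), mt:ATPase8 for Eaat1 (0.98), lncRNA:CR45533 for Gat (0.97), CG31688 for Gs2 (0.96), Rgk2 for repo (0.93), CG7342 for moody (0.87) and CG3339 for wrapper (0.96). Each was picked for the highest r among the tested features with a gene identifier, over only 12 libraries. All features of a library share its depth and scaling, so these are given as a description with no test. The feature nearest to alrm, asRNA:CR45479, had 15.2 CPM in females and 51.5 in males, and lncRNA:CR45533 had 21.1 and 36.6. Their log2 differences between the sexes averaged over housing were -1.77 and -0.79.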

How the data were processed

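Per the labels, polyA-selected RNA of 200 pooled heads per sample was sequenced. The authors deposited raw counts for each feature. Per the submitters' processing notes the tools included HTSeq 2.0.5, STAR 2.7.10b, edgeR 4.4.1, R 4.4.0 and Picard 2.27.5, with no order; build, annotation and strand setting: not given in the sources used here. Lines naming no gene held 10.2% to 13.2% of each column and were left out, as was 1 column not tied to a sample. Without strand, reads of overlapping genes cannot be told apart.

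Counts were fitted with edgeR 4.0.16 (R 4.3.3; quasi-likelihood, robust, TMM scaling, group means plus batch, all 12 libraries, 7 residual degrees of freedom) after filterByExpr (minimum count 10, total 15). Adjusted p-values are Benjamini-Hochberg over 10238 features, with a threshold of 0.05; intervals are 95%. Alternatives used DESeq2 1.42.0, limma 3.58.1, other scalings, filters and library sets. Correlations used 100000 permutations over 12 libraries and exact ones within a sex. CPM is computed here with TMM-scaled totals; RPKM divides it by the union exon length in BDGP6.54, in which 24186 of 24228 features were found. AANAT1, CG9657 and apoltp of the lists are speck, rumpel and Apoltp in the table. Named genes are the members, the called genes of each list (up to 4 per direction), the gene of smallest p in some lists without a call, and the most similar profiles. The members and lists were chosen with earlier results of these data known. No sequences are shown, as no sequence source was used here.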

Additional observations from a re-analysis of the deposited data

How the results depend on the processing

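With 3 libraries a group, depth and the spread between libraries limit what can be called, and the 2 shallowest libraries are both isolated females. Across the 7 genes, 6 comparisons and all settings, 878 of 952 values kept their direction and side of the threshold, 14 lost a call, 10 gained one and 50 changed sign, 0 of them while called.

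Scaling by library totals moved the median of all features to -0.23 for isolation in females, -0.26 for the difference between the sexes, -0.23 for females against males under isolation and -0.11 averaged over housing; relative to it the directions of alrm and Gat between the sexes were kept. Replicate numbers were not taken to pair the libraries, by a rule that asked every same-numbered pair to correlate above 0.1. For these pairs r ran from -0.18 to 0.51 (median 0.16, 18 pairs), against -0.51 to 0.35 (median -0.10, 36 pairs) for different numbers. The median was thus higher for same numbers, and whether such libraries belong together was not tested further. The replicate block raised the members called between the sexes under group housing from 1 to 2 (alrm and Gat) and the wider panel from 1 to 2 (rumpel and speck).

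Under group housing, 2 members (alrm and Gat) were called between the sexes with library totals, no filter, the stricter filter, DESeq2 and limma-voom, and 0 with only the compared groups or batch 2 alone; leaving out 1 library gave 0 to 2. The panel count there was 3 without a filter, 0 with only the compared groups or batch 2, and 0 to 2 leaving out 1 library. Under isolation 2 members were called with library totals and DESeq2, and 0 with batch 2 or with isolated females by replicate 0 alone; leaving out 1 library gave 0 to 1. The panel count was 1 with library totals and without a batch term, 4 without a filter, 0 with batch 2 or replicate 0 alone, and 0 to 3 leaving out 1 library. Averaged over housing 1 member (alrm) and 1 panel gene (rumpel) were called in batch 2, and 0 and 0 with isolated females by replicate 0 alone; leaving out 1 library gave 2 to 5 panel genes. For isolation in females the panel count was 0 with library totals, only the compared groups, batch 2 or replicate 0 alone, and 0 to 1 leaving out 1 library. The adjusted p of alrm ran from 0.00150 to 0.170 under group housing and from 0.00228 to 1.00 under isolation. The fits with fewer libraries also have fewer degrees of freedom; otherwise the cause was not tested. A single isolated female library was assumed to vary like the other groups.

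Sign changes concerned uncalled log2 values near 0. With library totals they were -0.06 (Gat) and -0.12 (repo) for isolation in females; -0.23 (alrm), -0.14 (Gat), -0.18 (repo) and -0.11 (moody) for the difference between the sexes; -0.15 (Eaat1), -0.06 (Gs2) and -0.14 (moody) for females against males under isolation; and -0.09 (moody) averaged. In batch 2 alone they were 0.02 (wrapper, isolation in females), -0.03 (Gat, isolation in males), -0.02 and -0.08 (alrm and moody, difference between the sexes), 0.03 (moody, sexes under group housing), 0.03 and -0.05 (repo and moody, sexes under isolation) and -0.01 (moody, averaged). With isolated females by replicate 0 alone they were 0.10 (alrm) and -0.10 (repo) for isolation in females, -0.14 (repo, difference between the sexes), and 0.00 (Eaat1) and 0.06 (Gs2) averaged. Without a filter alrm was -0.02 for the difference between the sexes.

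Leaving out 1 library, values crossing 0 ran as follows. For isolation, wrapper in females ran from -0.20 to 0.02; in males Gat ran from -0.02 to 0.12, repo from -0.04 to 0.08, Eaat1 from -0.20 to 0.01 and Gs2 from -0.17 to 0.02. For the difference between the sexes alrm ran from -0.12 to 0.13 and Gat from -0.01 to 0.17. Between the sexes moody ran from -0.12 to 0.04 under group housing; under isolation Eaat1 ran from -0.07 to 0.14, repo from -0.08 to 0.06 and moody from -0.05 to 0.13; averaged, Gs2 ran from -0.15 to 0.03 and moody from -0.05 to 0.05. Ratios to repo between the sexes ran from -0.17 to 0.01 (Eaat1), -0.07 to 0.09 (Gs2) and -0.03 to 0.13 (moody), and between housings from -0.05 to 0.11 (Gat and Gs2), -0.02 to 0.13 (moody), -0.09 to 0.09 (Eaat1) and -0.14 to 0.01 (wrapper).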
